A study of Homo sapiens with 6 samples.

Results

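Hyaluronan is a long, unbranched sugar polymer of the space around cells. It is built at the plasma membrane by hyaluronan synthases from UDP-glucuronic acid and UDP-N-acetylglucosamine, cut by hyaluronidases at the cell surface and in lysosomes, and bound by receptors, of which CD44 is the best known. Squamous epithelia and the carcinomas that arise from them are rich in it. The genes described here are 10 of the 38167 genes of the count table, taken by symbol: the synthases HAS1, HAS2 and HAS3, the hyaluronidases HYAL1, HYAL2 and HYAL3, the hyaluronan-degrading proteins CEMIP and CEMIP2, and the receptors CD44 and HMMR. All 10 symbols were in the table. Of these, 8 had enough counts to be tested, and HAS1 and HAS2 did not.

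The cells were Cal27, an established human line from a squamous carcinoma of the tongue, grown as spheroids by liquid overlay in Matrigel, which is extracted from basement membrane and gels on warming. The stiff group held 12 mg/mL Matrigel and the soft group 3 mg/mL. Each had 3 libraries of polyadenylated RNA taken on day 14, called biological replicates in the labels, which do not say whether these were separate cultures; the p-values then measure only the spread between these libraries. The gel's concentration sets stiffness and matrix ligand together, and 1 cell line was used.

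The libraries held between 30656278 and 40583044 counted fragments. Stiff replicate 2 stood apart from stiff replicates 1 and 3 on the second principal component (-25.9, against 15.9 and 13.8), which held 10.2% of the variance. Soft replicate 2 lay on the same side (-9.3, against 1.62 and 3.91 for soft replicates 1 and 3). In edgeR's quasi-likelihood test, 49.1% of the 18676 tested genes passed an adjusted p of 0.05 (25.3% higher and 23.8% lower in stiff), and the CPM of the groups did not overlap in 59.9%. CPM is the usual depth-scaled count, here computed on TMM-adjusted library sizes. A gene of this table therefore passes the threshold about as often as not, and the counts below are to be read against that. With limma on log2(TPM + 1), 2880 genes were higher and 4088 lower, or 41.3% of calls higher against 51.5% in edgeR. The 10 squamous epithelial markers were abundant in both groups and summed to 20247 to 21411 CPM in stiff and 7210 to 7838 CPM in soft, with 7 higher and 2 lower; their part in the results below was not tested.

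Stiff spheroids had more CD44, HMMR, CEMIP and HYAL2 RNA than soft spheroids and less HYAL1 RNA, whereas HAS3, the only synthase expressed above a few fragments, did not pass the test. Of the 8 tested genes, 4 were higher (25.3% of all tested genes were), 1 was lower (23.8% of all) and 3 did not pass. The largest difference was that of CD44, at 2.3-fold. The median log2 fold change of the 8 genes was 0.33, against -0.00017 over all tested genes. By CPM the groups did not overlap in 6 of the 8 genes (59.9% of all tested genes did not). In bulk RNA, fewer cells of a kind and less RNA per cell cannot be told apart.

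**Figure D1:**
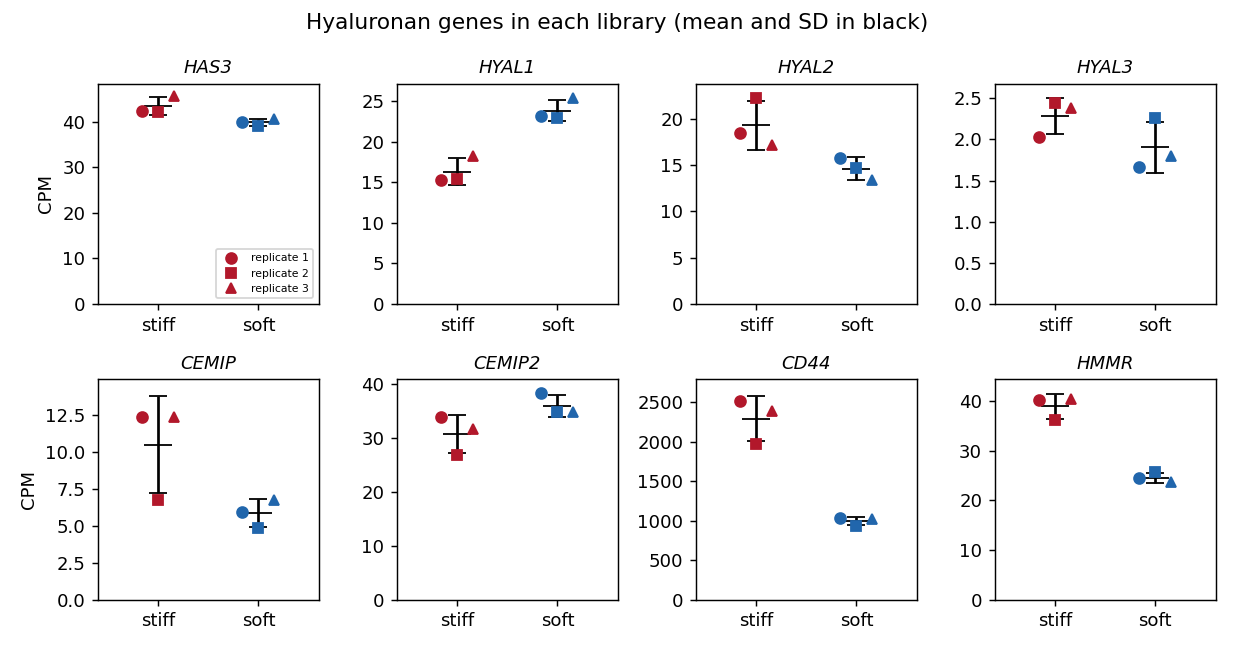
CPM of the 8 tested hyaluronan genes in each library, with stiff on the left and soft on the right of each panel; symbols mark the replicate number, and black bars the mean and SD of 3 libraries. CD44 lies at 1969 to 2509 CPM in stiff and 935 to 1034 CPM in soft, and CEMIP is the gene in which stiff replicate 2 (6.73 CPM) falls among the soft values.

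The synthases differ in the length and rate of the chains they make. HAS3 (Entrez 3038, chromosome 16, 69083484 to 69118719 in RefSeq's GRCh38.p14) had 42.4, 42.2 and 45.7 CPM in stiff replicates 1, 2 and 3, against 40.0, 39.1 and 40.6 CPM in the soft replicates. By CPM every stiff value lay above every soft value, but the gap was small. The deposited TPM overlapped, at 9.6, 8.6 and 10.3 in stiff replicates 1, 2 and 3 and 9.8, 9 and 9.5 in the soft replicates. The log2 fold change was 0.12 ± 0.07 (SE, 95% interval -0.03 to 0.28, adjusted p = 0.174 in edgeR), an interval that includes 0. HAS3 did not pass the test under any of 16 alternatives (adjusted p between 0.0538 and 0.984). Its exons share 6.9% of their bases with CHTF8 on the opposite strand, a gene that was lower in stiff (log2 fold change -0.56, adjusted p = 5.6e-05); with the strand setting of the counting unknown, the effect of this overlap on the HAS3 count was not tested.

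HAS1 (Entrez 3036, chromosome 19, 51713112 to 51723991) had 2, 4 and 5 fragments in the stiff libraries and 0, 4 and 2 in the soft libraries. HAS2 (Entrez 3037, chromosome 8), the main synthase of fibroblasts and of many invasive tumours, had 1, 0 and 5 fragments in stiff and 0, 3 and 1 in soft. Both genes were close to nothing. The ratio of summed counts, stiff over soft, was 1.84 for HAS1 (95% Clopper-Pearson interval 0.625 to 6.07) and 1.51 for HAS2 (0.357 to 7.26), intervals that cover counting error only and hold no change. For scale, 3 fragments over a group correspond to 0.0282 CPM in stiff and 0.0281 CPM in soft. HAS3 made up 99.0% ± 0.959 of the summed TPM of the 3 synthases in stiff and 99.3% ± 1.26 in soft (SD, n = 3 each; exact two-sided permutation p = 1). The deposited TPM of HAS1 and HAS2 were 0 or 0.1 in every library, so the spread of these shares rests on rounding to 1 decimal.

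HYAL1 and HYAL2 are the main hyaluronidases of somatic tissues: HYAL2 is held at the cell surface by a lipid anchor and makes the first cuts, and HYAL1 works in lysosomes on the shorter chains. They moved in opposite directions. HYAL1 (Entrez 3373, chromosome 3, 50299893 to 50312381) had 15.3, 15.4 and 18.2 CPM in stiff and 23.2, 23.0 and 25.4 CPM in soft. The groups were well separated, with the highest stiff library below the lowest soft one. Its log2 fold change was -0.55 ± 0.10 (SE), a 1.46-fold fall (adjusted p = 0.00106), and it was past the threshold under all 16 alternatives (adjusted p of 0.0178 or less).

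HYAL2 (Entrez 8692, chromosome 3, 50317808 to 50322745) had 18.5, 22.3 and 17.2 CPM in stiff, against 15.8, 14.7 and 13.4 CPM in soft. Each stiff library lay above each soft library, with stiff replicate 2 the highest. HYAL2 rose 1.32-fold (log2 fold change 0.40 ± 0.12, SE, adjusted p = 0.0162), but the call was not firm: it was lost without soft replicate 2 (adjusted p = 0.0536), without soft replicate 3 (0.0762) and in the 3 limma fits on TPM (0.074 to 0.115), with a range of 0.00355 to 0.115 over all alternatives. TUSC2 on the same strand covers 11.2% of its exons, so the HYAL2 count is uncertain to that extent; TUSC2 itself did not pass (log2 fold change -0.12, adjusted p = 0.558), but without stiff replicate 2 it was at -0.34 and lower (0.00845; 0.00845 to 0.89 over all alternatives). HYAL3 (Entrez 8372, chromosome 3, 50292832 to 50299405) had 2.03, 2.44 and 2.38 CPM in stiff and 1.66, 2.26 and 1.80 CPM in soft. The groups overlapped, and the log2 fold change of 0.26 had a 95% interval of -0.16 to 0.69 (adjusted p = 0.279).

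Because HYAL1 fell and HYAL2 rose, the makeup of the family shifted. HYAL2 was 67.7%, 70.5% and 61.5% of the summed TPM of HYAL1, HYAL2 and HYAL3 in stiff and 56.8%, 54.1% and 50.4% in soft. The lowest stiff library was above the highest soft library. The difference was 12.8 percentage points (66.6% ± 4.61 in stiff and 53.8% ± 3.25 in soft, SD, n = 3 each), with an exact two-sided permutation p of 0.1, the smallest that 3 against 3 libraries allow. The gene lengths behind the deposited TPM set which of the enzymes appears the more abundant: per kilobase of GENCODE release 29 exons, HYAL2 was 40.1% ± 4.76 of the family in stiff and 27.4% ± 2.54 in soft, below HYAL1 in both groups by mean level. The shift in percentage points was 12.8 on both scales.

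HYAL1, HYAL2 and HYAL3 lie next to each other on the same strand of chromosome 3. Within 50000 bases of them the count table held 12 further tested genes. Of these, 3 were higher (25.3% of all tested genes were), 2 lower (23.8% of all) and 7 not past the threshold. The block did not move as a unit: HYAL1 was lower while HYAL2, its neighbour, was higher. NAA80, which encodes an actin N-terminal acetyltransferase and shares 12.2% of the exon bases of HYAL3, was 2.68-fold higher (6.11 ± 0.735 CPM in stiff and 2.26 ± 0.597 CPM in soft, SD, n = 3 each, adjusted p = 0.000236). IFRD2, on the other side of HYAL3 and overlapping 2.12% of its exons, fell 1.76-fold (adjusted p = 0.000149). The HYAL3 value is uncertain for that reason.

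**Figure D2:**
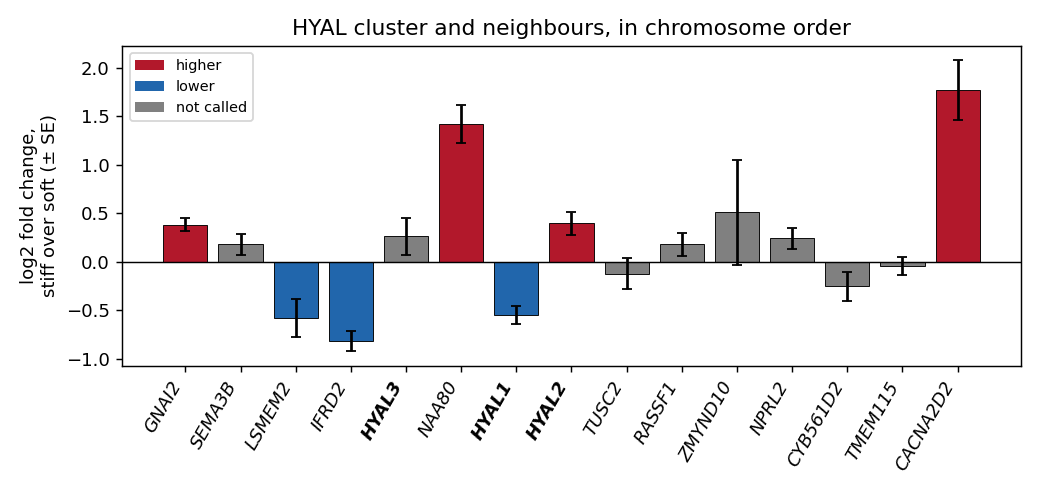
Log2 fold change, stiff over soft, with its SE for the 15 tested genes of the HYAL cluster and its neighbours, in the order of their position on chromosome 3 (spacing not to scale); HYAL genes in bold, red for higher, blue for lower, grey for not past the threshold. HYAL1 (-0.55) lies between NAA80 (1.42) and HYAL2 (0.40).

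CEMIP is a hyaluronan-binding protein that drives breakdown of long hyaluronan chains without the HYAL enzymes, and CEMIP2 is its relative with a transmembrane segment. CEMIP (Entrez 57214, chromosome 15, 80779370 to 80951771) had 12.4, 6.73 and 12.4 CPM in stiff and 5.94, 4.87 and 6.78 CPM in soft. Stiff replicates 1 and 3 were alike, and stiff replicate 2 lay just below the highest soft library, so the groups overlapped. CEMIP rose 1.79-fold (log2 fold change 0.84 ± 0.22, SE, 95% interval 0.34 to 1.34, adjusted p = 0.0108). Without stiff replicate 2 the log2 fold change was 1.08 (adjusted p = 5.23e-07), and in the 3 limma fits on TPM the call was lost (adjusted p = 0.114 to 0.173), a range of 5.23e-07 to 0.173 over all alternatives.

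CEMIP2 (Entrez 23670, chromosome 9, 71683366 to 71769466) had 33.9, 27.0 and 31.6 CPM in stiff, against 38.4, 34.9 and 34.8 CPM in soft. No stiff library reached the lowest soft one. The log2 fold change of -0.23 had a 95% interval of -0.44 to -0.01 before adjustment and an adjusted p of 0.0756. It passed with scaling by library size only (adjusted p = 0.0342), with the replicate block (0.0258) and without stiff replicate 1 (0.0399), with a range of 0.0258 to 0.242 over all alternatives. Whether CEMIP and CEMIP2 differ from each other in their change was not tested.

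CD44 is a transmembrane glycoprotein that binds hyaluronan through its outer domain and ties it to the actin cortex through ezrin, radixin and moesin; it is expressed throughout the basal layers of stratified epithelia and is widely used to mark cells of head and neck carcinomas. CD44 (Entrez 960, chromosome 11, 35139171 to 35232402) had 2509, 1969 and 2387 CPM in stiff and 1034, 935 and 1018 CPM in soft. The soft libraries lay close together, and the lowest stiff library, replicate 2, was still far above the highest soft one. CD44 rose 2.3-fold (log2 fold change 1.20 ± 0.09, SE, 95% interval 0.99 to 1.41, adjusted p = 5.97e-06) and passed under all 16 alternatives, with log2 fold changes of 1.06 to 1.30. By CPM averaged over the 6 libraries it stood above 99.8% of the tested genes, and by the deposited TPM above 87.7%.

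CD44 has many alternatively spliced exons, and the table counts the gene as a whole, so isoforms were not analysed here. The deposited TPM put CD44 at 76.0 ± 13.3 in stiff and 35.6 ± 2.92 in soft (SD, n = 3 each). The ratio of its counts to its TPM corresponds to a gene length of 42426 bases, scaled so that the median of 5981 well counted genes matches GENCODE, which is 4.24 times the 10004 bases of its merged exons in GENCODE release 29. The same ratio was between 0.659 (HYAL2) and 2.2 (HYAL1) for the other tested genes. Per kilobase of GENCODE exons, CD44 was at 229 ± 28.3 CPM in stiff and 99.5 ± 5.28 CPM in soft (SD, n = 3 each), above each of the other tested hyaluronan genes on both scales.

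**Figure D3:**
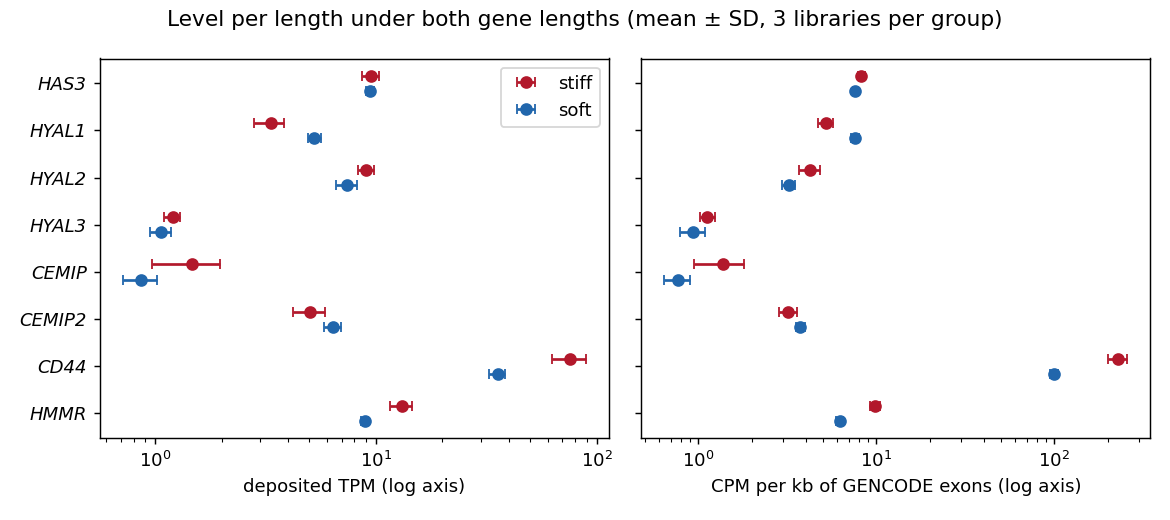
Level per length of the 8 tested genes as mean ± SD of 3 libraries per group, on log axes: the deposited TPM on the left and CPM per kilobase of GENCODE exons on the right, with stiff in red above soft in blue. CD44 is the highest gene on both scales, and HYAL1 and HYAL2 change places between them by mean level.

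By level per length in stiff, the order after CD44 was HMMR (13.1 ± 1.53 TPM), HAS3 (9.5 ± 0.854), HYAL2 (9.03 ± 0.751), CEMIP2 (5.03 ± 0.833), HYAL1 (3.33 ± 0.513), CEMIP (1.47 ± 0.493) and HYAL3 (1.2 ± 0.1). In soft it was HAS3 (9.43 ± 0.404 TPM), HMMR (8.9 ± 0.361), HYAL2 (7.4 ± 0.819), CEMIP2 (6.37 ± 0.551), HYAL1 (5.27 ± 0.351), HYAL3 (1.07 ± 0.115) and CEMIP (0.867 ± 0.153). The mean ± SD ranges overlapped for HAS3 and HYAL2 in stiff, for HAS3 and HMMR and for HYAL2 and CEMIP2 in soft, and for CEMIP and HYAL3 in both groups, so the order within these pairs is not resolved. The order changed on the GENCODE scale. In stiff, CD44 was followed by HMMR (9.87 ± 0.621 CPM per kilobase), HAS3 (8.21 ± 0.376), HYAL1 (5.21 ± 0.531), HYAL2 (4.25 ± 0.58), CEMIP2 (3.2 ± 0.367), CEMIP (1.38 ± 0.43) and HYAL3 (1.13 ± 0.109). In soft, it was followed by HYAL1 (7.62 ± 0.416), HAS3 (7.54 ± 0.146), HMMR (6.23 ± 0.262), CEMIP2 (3.75 ± 0.213), HYAL2 (3.22 ± 0.269), HYAL3 (0.939 ± 0.154) and CEMIP (0.77 ± 0.126). HYAL1 moved most. By TPM it stood behind HAS3, HMMR, HYAL2 and CEMIP2 in both groups. On the GENCODE scale in soft, HYAL1 stood behind CD44 alone by mean, but its mean ± SD range overlapped that of HAS3. Ranges on that scale also overlapped for HYAL1 and HYAL2 in stiff and for CEMIP and HYAL3 in both groups. The order within these pairs is not resolved.

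HMMR, also called RHAMM or CD168, was first found as a hyaluronan-binding protein and is known inside cells as a spindle and centrosome protein whose level peaks as cells enter mitosis. HMMR (Entrez 3161, chromosome 5, 163460632 to 163491941) had 40.2, 36.0 and 40.4 CPM in stiff and 24.4, 25.6 and 23.6 CPM in soft. The groups were clearly apart and each was narrow. HMMR rose 1.58-fold (log2 fold change 0.66 ± 0.08, SE, adjusted p = 9.95e-05) and passed under all 16 alternatives (adjusted p of 0.0154 or less). Its antisense partner HMMR-AS1, which overlaps 2.87% of its exons, was 1.55-fold higher (6.01 ± 0.741 CPM in stiff and 3.86 ± 0.307 CPM in soft, SD, n = 3 each, adjusted p = 0.00445), a call lost with limma without a filter (0.0675; 0.000156 to 0.0675 over all alternatives); reads of the overlap cannot be assigned to either strand with the setting unknown.

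**Figure D4:**
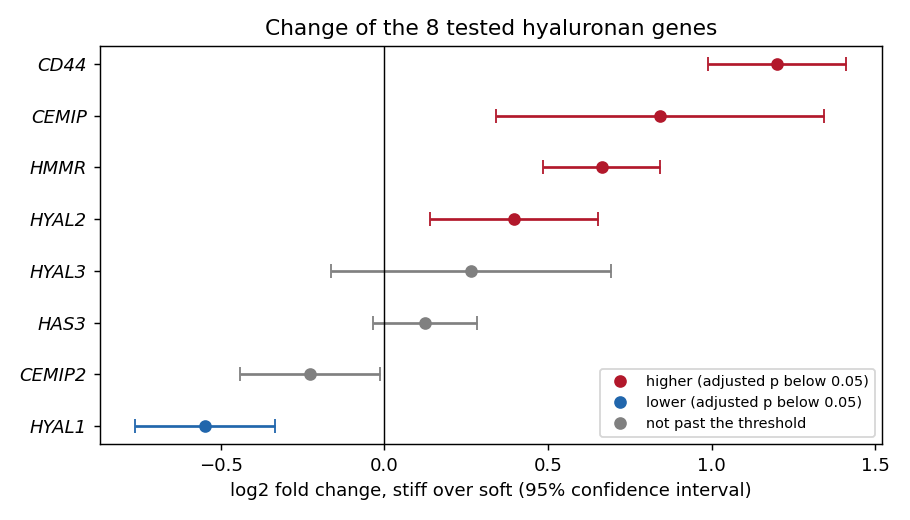
Log2 fold change, stiff over soft, with its 95% confidence interval for the 8 tested hyaluronan genes, ordered by size; red for higher, blue for lower and grey for not past an adjusted p of 0.05. CD44 (1.20) is at the top and HYAL1 (-0.55) at the bottom, and the intervals of HAS3 and HYAL3 include 0.

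Promoters of genes that peak in mitosis often hold the letters TTTGAA close to the start, an element known as CHR, together with CCAAT boxes. In the 250 bases before the RefSeq start (GRCh38.p14), HMMR had 2 matches to TTTGAA, side by side, and 5 to CCAAT, counting both strands. Of 35116 such windows of all genes, 13.3% held TTTGAA and 1.72% held it 2 or more times, while 32% held CCAAT and 0.319% held it 5 or more times. Of 14 windows of the mitotic genes listed below (11 of the 14 genes have one), 5 held TTTGAA and 10 held CCAAT. The other windows searched, 9 of 8 further hyaluronan genes, held TTTGAA once, in HAS1, and no CCAAT. The stretches that hold the match nearest to the start in HMMR and in the 4 mitotic genes that held one, all higher in stiff (KIF15 not past the threshold with limma without a filter, adjusted p = 0.0801, over a range of 0.000321 to 0.0801), are shown 5′ to 3′ on the coding strand, with TTTGAA or its reverse complement in capitals. They lie at chr5:163460596-163460625 (HMMR), chr16:23678848-23678877 (PLK1), chr3:44761747-44761776 (KIF15), chr10:60778453-60778477 (CDK1) and chr17:40418030-40418059 (TOP2A, minus strand).
HMMR: tggggagaTTTGAATTTGAAaccggtaggg
PLK1: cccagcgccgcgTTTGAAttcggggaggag
KIF15: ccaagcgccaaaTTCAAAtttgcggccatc
CDK1: tagcgcggtgagTTTGAAactgctc
TOP2A: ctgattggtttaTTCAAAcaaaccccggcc
The nearest match began 22 bases before the start in HMMR, 29 in PLK1, 35 in KIF15, 13 in CDK1 and 151 in TOP2A. A match describes the letters only. TGANTCA, the AP-1 motif, was in none of the 10 windows of hyaluronan genes and in 6.57% of all windows, and GGAATG, the core letters bound by TEAD factors, was in 3 of the 10 and in 11.9% of all.

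The spindle partners of HMMR and other mitotic genes were mostly higher in stiff, as HMMR was. Of 14 tested, 11 were higher (25.3% of all tested genes were) and 1 was lower (23.8% of all). The other 2 missed the threshold, and the median log2 fold change was 1.19. TOP2A, which untangles chromosomes, was at 288 ± 5.4 CPM in stiff and 110 ± 3.24 CPM in soft (2.62-fold, adjusted p = 2.56e-07). PLK1, a mitotic kinase, rose 2.44-fold, and FAM83D, which works with HMMR in placing the spindle, rose 2.74-fold (46.0 ± 2.29 CPM in stiff and 16.7 ± 0.454 CPM in soft, SD, n = 3 each). BRCA1, a ubiquitin ligase subunit linked to HMMR at centrosomes, was the gene that fell (11.2 ± 0.193 CPM in stiff and 19.1 ± 1.99 CPM in soft, SD, n = 3 each, adjusted p = 0.000157; named after its values were seen). DYNLL1, a dynein light chain with the highest TPM of the list, had 109, 148 and 114 CPM in stiff and 123, 146 and 132 CPM in soft, with stiff replicate 2 the highest of its group. Its log2 fold change was -0.11 (adjusted p = 0.472), and without stiff replicate 2 it was -0.26 and past the threshold (adjusted p = 0.00244; 0.00244 to 0.892 over all alternatives).

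Of 12 tested CD44 partners, sheddases and splice factors, 4 rose (25.3% of all tested genes did) and 5 fell (23.8% of all). The other 3 missed the threshold, and the median log2 fold change was 0.03. The 3 linkers to actin were all higher: MSN (moesin) rose 1.77-fold, with 492, 403 and 485 CPM in stiff and 261, 249 and 272 CPM in soft (adjusted p = 3.97e-05), and EZR (ezrin) rose 1.54-fold, at 476 ± 13 CPM in stiff and 310 ± 8.99 CPM in soft (SD, n = 3 each, adjusted p = 3.09e-05). RDX (radixin, named after its values were seen) was 61.7 CPM in stiff and 51.5 CPM in soft (adjusted p = 0.0147), a call lost without soft replicate 1 (0.0545), without soft replicate 2 (0.0856) and in the 3 limma fits on TPM (0.247 to 0.312; 0.00096 to 0.312 over all alternatives). MMP14, a membrane protease that cuts CD44, rose 1.22-fold (adjusted p = 0.00338), a call lost in the 3 limma fits on TPM (0.0587 to 0.0881; 0.000169 to 0.0881 over all alternatives). CD74, the invariant chain that pairs with CD44 as a receptor for the cytokine MIF, fell 1.97-fold (238 ± 14.8 CPM in stiff and 469 ± 56 CPM in soft, SD, n = 3 each, adjusted p = 1.96e-05). The sheddase ADAM10 and the gamma-secretase subunit NCSTN also fell (adjusted p = 0.00192 and 0.0064; named after their values were seen). NF2, a relative of the linkers, fell with an adjusted p of 0.0312, a call lost in 9 of 16 alternatives, among them each library left out other than stiff replicate 2 (0.00701 to 0.143 over all alternatives). ESRP1 and ESRP2, epithelial splice factors that favour the longer CD44 forms, did not pass (log2 fold changes of 0.05 and 0.02, adjusted p = 0.575 and 0.82), and the sign of both turned with scaling by library size only and in the limma fits.

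The enzymes that supply the sugar nucleotides moved in both directions. Of 9 tested, 4 were higher (25.3% of all tested genes were) and 4 lower (23.8% of all). The other 1 missed the threshold, and the median log2 fold change was -0.01. GFPT1 works at the rate-limiting step of the hexosamine pathway to UDP-N-acetylglucosamine. It had 91.0, 88.8 and 93.6 CPM in stiff and 166, 156 and 154 CPM in soft. It fell 1.74-fold (adjusted p = 7.79e-06), and GNPNAT1, which acetylates the product of GFPT1 on the way to the same sugar, fell 1.46-fold (adjusted p = 0.000118). GFPT2, the isoenzyme of GFPT1, went the other way and rose 1.26-fold (adjusted p = 0.0223 in edgeR, named after its values were seen). By TPM GFPT2 was at 45.6 in stiff and 38.7 in soft, against 13.2 and 24.8 for GFPT1. By CPM the order was the reverse, with GFPT2 at 34.7 in stiff and 27.5 in soft, against 91.2 and 158 for GFPT1. Which isoenzyme was the more abundant is not resolved, since the gene lengths behind the deposited TPM are not known. The GFPT2 call was lost without soft replicate 1 and in the 3 limma fits on TPM, where UAP1 alone of the list was higher. Without soft replicate 2, soft replicate 3, stiff replicate 1 or stiff replicate 3, the list had 3 higher genes, PGM1 and UAP1 among them. In each of these fits the call of GFPT2 or of UGP2, another gene of the list, was therefore lost as well. UAP1, the last step, rose 1.32-fold (37.0 ± 1.03 CPM in stiff and 27.9 ± 0.43 CPM in soft, SD, n = 3 each, adjusted p = 0.00104). PGM1, which feeds the other branch, rose 1.18-fold (adjusted p = 0.0099), a call lost without soft replicate 1 (0.0509) and in the 3 limma fits on TPM (0.000277 to 0.262 over all alternatives). UGDH, which makes UDP-glucuronic acid, had a log2 fold change of -0.01 (adjusted p = 0.906; named after its values were seen).

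Of 4 tested enzymes that finish the breakdown or belong to the hyaluronidase family, 3 rose, 0 fell and 1 did not pass. Over all tested genes, 25.3% were higher and 23.8% lower. GUSB, lysosomal beta-glucuronidase, rose 1.35-fold (73.2 ± 2.73 CPM in stiff and 54.3 ± 4.18 CPM in soft, SD, n = 3 each, adjusted p = 0.00118). HEXA, a subunit of lysosomal beta-hexosaminidase, rose 1.27-fold (adjusted p = 0.00287). HYAL4 was at 0.75 CPM in stiff and 0.729 CPM in soft (adjusted p = 0.921), and SPAM1, the hyaluronidase of sperm, was at 0 in all libraries. GUSB and HEXA were higher in stiff, whereas HYAL1 was lower.

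Other receptors and matrix proteins that bind hyaluronan were mostly scarce: 13 of 23 were too low to test, among them LYVE1, STAB2, ACAN, HAPLN1 and TNFAIP6. The whole list summed to 54.7 to 58.8 CPM in stiff and 53.8 to 62.5 CPM in soft. The largest part was the receptor TLR2, at 32.4 CPM in stiff and 31.1 CPM in soft. TLR2 stood above 63.5% of the tested genes by CPM and did not pass (adjusted p = 0.627 in edgeR, named after its values were seen). Of 10 tested, 1 rose (25.3% of all tested genes did), 1 fell (23.8% of all) and 8 did not pass. HAPLN2, a link protein best known from brain, had 10, 29 and 24 fragments in stiff and 4, 1 and 2 in soft. The summed counts differed 9.04-fold (4.14 to 23.4 by Clopper-Pearson, for counting error alone). In edgeR HAPLN2 rose 8.64-fold (adjusted p = 0.00164), and it passed in the 13 alternatives that tested it (0.0194 or less). It was too low to test with at least 10 counts in every library and in the limma fits with a minimum mean TPM. TLR4, an innate receptor reported to sense hyaluronan fragments, fell 2.36-fold at levels of 0.492 ± 0.185 CPM in stiff and 1.16 ± 0.03 CPM in soft (SD, n = 3 each, adjusted p = 0.0071), a call lost with limma without a filter (0.219; 0.00121 to 0.219 over all alternatives). PTX3, which crosslinks hyaluronan-rich matrix and had the highest TPM of the list, did not pass (5.3 ± 0.693 TPM in stiff and 5.07 ± 0.681 TPM in soft, adjusted p = 0.475). By CPM it was well below TLR2, at 2.53 in stiff and 2.25 in soft, so its rank depends on the gene lengths behind the deposited TPM.

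**Figure D5:**
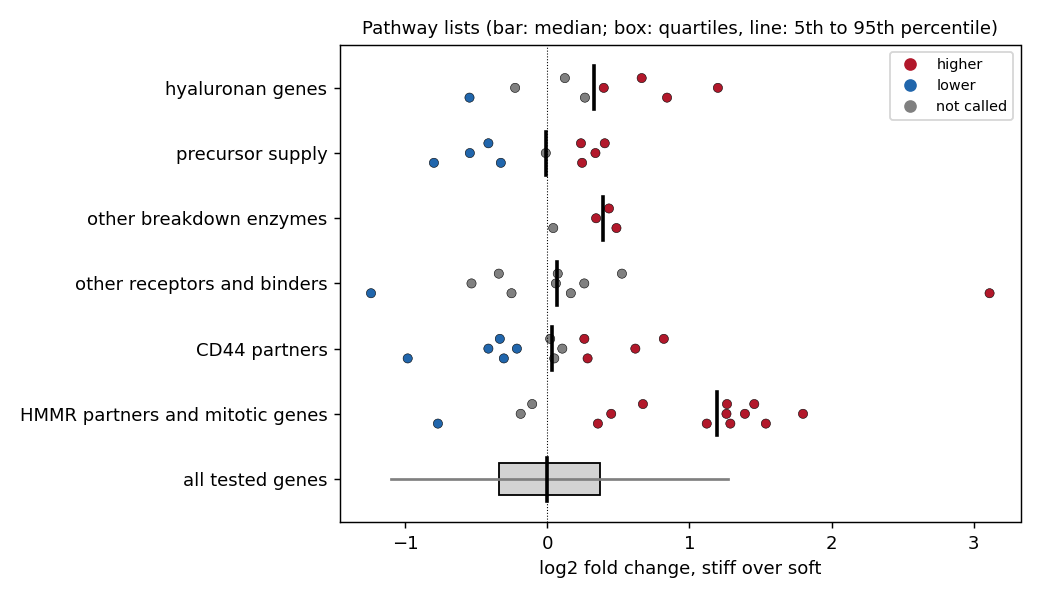
Log2 fold change, stiff over soft, of each tested gene in the hyaluronan set and in 5 related lists, with the list's median as a bar; red for higher, blue for lower, grey for not past the threshold. The bottom row gives the median, quartiles and 5th to 95th percentiles of all tested genes; the mitotic list has its median at 1.19, and precursor supply and CD44 partners have theirs near 0.

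CD44 is also abundant in fibroblasts and leukocytes, and HAS2 in fibroblasts. Fibroblast markers summed to 99.4 to 106 CPM in stiff and 73.0 to 80.5 CPM in soft; 2 of the 4 tested were higher, THY1 was at 0 in all libraries, and COL3A1, DCN, PDGFRA and FAP were too low to test. Leukocyte markers summed to 130 to 144 CPM in stiff and 103 to 111 CPM in soft, nearly all of it CD68 and CD14, with 1 of 3 tested higher and 1 lower, while the pan-leukocyte gene PTPRC was at 0.0371 CPM in stiff and 0.00802 CPM in soft. Of 3 tested endothelial markers, 1 was higher and 1 lower, and the list summed to 3.81 to 5.07 CPM in stiff and 11 to 14 CPM in soft. CD44 alone was at 935 CPM or more in every library. The part of other cells in the CD44 result was not tested.

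Likeness was sought among 12428 genes that averaged 5 CPM or more. The 5 whose log2 CPM followed CD44 most closely over the 6 libraries were ECT2, RIN2, EFS, FSD1L and FASN (Pearson's r = 0.9993 to 0.9996), and those closest to HMMR were HMGXB4, THBS1, TRIM34, POLR2J4 and BUB1B (r = 0.9978 to 0.9982). These values describe likeness over 6 libraries that fall into 2 groups, where r was over 0.95 for 1209 genes with CD44 and 1027 with HMMR. ECT2, a guanine exchange factor of cell division, was at 115 CPM in stiff and 72.7 CPM in soft, and BUB1B, a mitotic checkpoint kinase, at 42.9 CPM in stiff and 19.8 CPM in soft. POLR2J4 has near-identical relatives, so its counts are uncertain.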

How the data were processed

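RNA of 6 libraries was analysed from tables the authors deposited. The tools named per the submitters' processing notes are STAR 2.6.1e, featureCounts 1.6.2, Trim Galore 0.4.2, FastQC 0.11.7 and cutadapt 1.9.1, and the build is hg38. How genes were annotated and whether strand was used is not given in the sources used here. Counts were deposited as whole numbers per gene symbol, without normalization. The deposited TPM are the authors' values to 1 decimal, 1 table per library.

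Counts were tested with edgeR 4.0.16 in R 4.3.3 (TMM, default filter, quasi-likelihood F test, no covariate, Benjamini-Hochberg adjustment over 18676 tested genes, threshold 0.05), after a check on simulated data. The SE is the size of the log2 fold change over the square root of F. Groups came from the labels. Alternatives used DESeq2 1.42.0, other scalings and filters, limma 3.58.1 on log2 TPM (pseudocounts 1 and 0.1, with and without a minimum mean TPM of 1), a replicate block and leaving out 1 library at a time. Shares per GENCODE length were added after seeing the data. Exon overlaps and lengths are from GENCODE release 29, positions and promoter sequences from RefSeq GRCh38.p14, with 9 of 10 hyaluronan genes matched. Within a group, no pair of libraries was as alike as resampling of 1 library would be (chi-square over its degrees of freedom was 3.42 to 34.0). The members and lists were chosen with earlier results of these data known. Named were the 10 members, per list up to 3 called genes with the smallest p and the gene with the highest TPM, and the 5 genes most like CD44 and HMMR; some genes that the lists count are not reported here. Clopper-Pearson 95% intervals cover counting error only, since amplified fragments are not independent molecules.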

Additional observations from a re-analysis of the deposited data

How the results depend on the processing

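The count of hyaluronan genes higher in stiff was 4 with DESeq2, the other scalings and filters, the robust dispersion and the block, and 2 in each of the 3 limma fits on TPM, where CEMIP and HYAL2 were lost. With each library left out it was 3 or 4. The count lower was 2 with library size only and with the replicate block, where CEMIP2 joined HYAL1, and 1 to 2 with each library left out. CD44, HMMR and HYAL1 kept their direction and their call in 16 of 16 alternatives. Among the 52 genes refitted under the alternatives, the log2 fold change turned sign only in 5 that did not pass. ESRP1 was at -0.0075 with library size only, and at -0.064, -0.066 and -0.064 with limma on log2(TPM + 1), on log2(TPM + 0.1) and without a filter. ESRP2 was at -0.036 with library size only, and at -0.0846, -0.0898 and -0.0846 in those limma fits. HYAL4 was at -0.015 with library size only. With 1 library left out, the range was -0.032 to 0.0072 for UGDH, -0.026 to 0.046 for ESRP2, -0.094 to 0.27 for HYAL4 and -0.34 to 0.028 for TUSC2. The causes were not tested. Over all related lists, 23 genes were higher, against 14 with limma on log2(TPM + 1), 14 on log2(TPM + 0.1) and 15 without a filter. Over all genes, 4722 were higher in edgeR, against 2880, 2831 and 3138 in those limma fits. The median log2 fold change of all tested genes was -0.11 on log2(TPM + 0.1) and between -0.09 and 0.00 in the other settings. The labels number the replicates alike in both groups without saying what a number marks. Deviations from the group mean correlated at 0.134, 0.319 and 0.0954 for same-numbered libraries (1, 2 and 3). For differently numbered libraries the range was -0.26 to 0.129. Whether a number marks a shared batch was not tested, and the main fit held no block. With the replicate block, 5167 genes were higher and 5039 lower. HAS1 and HAS2 had too few counts to pass the filter of the main fit.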
